A study of Mus musculus with 10 samples.

Results

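Antiviral interferon-stimulated genes, 44 genes that cells switch on when an interferon binds its receptor, were measured in mouse liver 6 days after an adenovirus had been given. They were chosen by name, all 44 were found among the 24016 transcripts listed, and each was listed once. The study asked how gene transfer of the growth factor VEGF-A changes gene expression in the liver, and whole-liver RNA of 10 mice was sequenced. The AdVEGFA group (n = 5) was male C57BL/6 mice, 8 to 12 weeks old, given a serotype 5 adenovirus that expresses VEGF-A under the CMV promoter through the tail vein. The AdCMV group (n = 5) was mice of the same strain, sex and age given an empty adenovirus that carries the CMV promoter and no transgene. Both groups thus received a virus, no mouse without virus was compared, and every level below is that of an infected liver. The mice are labelled as biological replicates.

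An infected cell senses foreign nucleic acid through receptors such as RIG-I and MDA5 and secretes type I interferon, which binds the receptor IFNAR on neighbouring cells. The receptor's kinases JAK1 and TYK2 activate STAT2, which with IRF9 is part of the complex ISGF3 that binds the interferon-stimulated response element (ISRE) in the promoters of their target genes. Interferon-gamma from T and NK cells binds another receptor, IFNGR, and acts at the gamma-activated site (GAS); many genes answer both signals, and the products block entry, translation and replication of viruses. The liver clears most adenovirus from the blood, chiefly in its Kupffer cells and hepatocytes.

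Values were deposited as RPKM (reads scaled to the length of the transcript and to the mapped reads of the library), and each library held 5596560 to 13494000 mapped tags as recovered from the steps of the RPKM values. An RPKM depends on what else is in the library. The Mup genes, which encode the major urinary proteins secreted by hepatocytes, took 42.2, 39.6, 18, 50.5 and 32.4% of the reads in AdCMV mice 1 to 5 and 17, 17.1, 7.8, 11.2 and 28.6% in AdVEGFA mice 1 to 5. Every AdVEGFA mouse was below AdCMV mice 1, 2, 4 and 5, and AdVEGFA mouse 5 was above AdCMV mouse 3. The median log2 fold change (AdVEGFA over AdCMV, on log2(RPKM + 0.1)) of all 13933 transcripts whose mean passed 0.5 RPKM in 1 group or both was 0.38, an upward shift, and -0.0044 after median-ratio scaling between libraries. Changes of the 44 genes are therefore given on the deposited RPKM and, relative to that shift, after median-ratio scaling. Values per mouse, and statements on which groups overlap, are on the deposited RPKM unless scaling is named. A gene was called where limma's Benjamini-Hochberg adjusted p was under 0.05 and the log2 fold change over 1 or under -1. Across the table, 13% of transcripts were called higher in the AdVEGFA group and 1.54% lower on the deposited RPKM, so that 10.6% of the calls were lower. After scaling, 7.77% were higher and 3.14% lower, and 28.8% of the calls were lower. Vegfa itself, as a check of the labels, had 17.7, 16.5, 23.2, 13.8 and 19.2 RPKM in AdCMV mice 1 to 5 and 29.7, 33.1, 28.3, 39.4 and 28.6 in AdVEGFA mice 1 to 5, with every AdVEGFA mouse above every AdCMV mouse (0.82 ± 0.19 SE, limma adjusted p = 0.00487; 0.42 after scaling). Hepatocyte markers such as albumin (Alb, 7716 ± 2056 RPKM in the AdCMV group, SD, n = 5) were among the highest values, as the labelled tissue has them.

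Part of the antiviral genes were called lower in the AdVEGFA group on either scale, and none was called higher. All 44 passed the filter on low values, Apol10a through the AdCMV group alone. On the deposited RPKM 14 of 44 were called lower (31.8%, against 1.54% of all transcripts) and 0 higher (against 13%). After median-ratio scaling 23 were called lower (52.3%, against 3.14%) and 0 higher (against 7.77%), and these 23 included the first 14. The median log2 fold change of the 44 was -0.64, against 0.38 for all transcripts, and -1.03 after scaling, against -0.0044. Of the 44, 39 had a log2 fold change below 0 on the deposited RPKM and 42 after scaling. No member was called higher by limma; at an unadjusted p under 0.05 there was 1 with a positive change (Sp100, below the fold change threshold), and limma's voom on the recovered reads also called 0 higher. For 14 of the 44 genes (31.8%, against 1.29% of all transcripts) every AdVEGFA mouse was below every AdCMV mouse, and 11 of these 14 were also called. After scaling this held for 32 of the 44 (72.7%, against 7.16% of all transcripts), and 22 of these were called. The members were not chosen blind to these data, so the shares are a description. In whole liver, fewer cells that express a gene and less RNA per cell cannot be told apart.

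**Figure D1:**
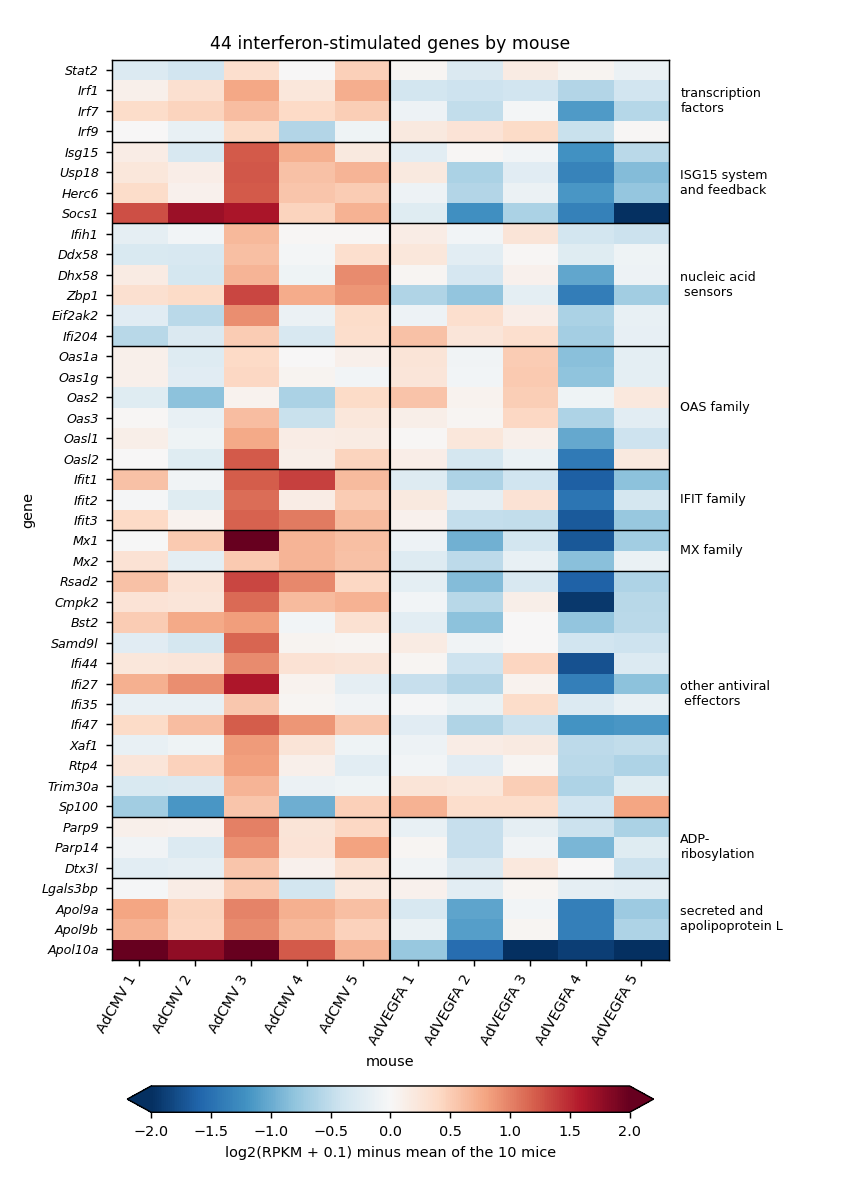
Level of each of the 44 genes (rows, by role) in each of the 10 mice (columns), as log2(RPKM + 0.1) minus the gene's mean over the 10 mice, with red for above and blue for below that mean. Colours end at 2 in either direction. The column of AdCMV mouse 3, which had the highest AdCMV value for 37 genes, is red for nearly all of them, and that of AdVEGFA mouse 4, with the lowest AdVEGFA value for 34, is mostly blue.

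Mice of a group differed among themselves. The 44 genes summed to 1383, 1428, 2187, 1311 and 1326 RPKM in AdCMV mice 1 to 5 and to 994, 797, 1111, 585 and 754 in AdVEGFA mice 1 to 5, so that every AdVEGFA sum was below every AdCMV sum. AdCMV mouse 3 had the highest AdCMV value for 37 of the 44 genes on the deposited RPKM. It was also the AdCMV library with the lowest Mup share, and after median-ratio scaling it was the highest for 6 genes and AdCMV mouse 4 for 27; how much of its high values comes from library composition was not tested. AdVEGFA mouse 4 had the lowest AdVEGFA value for 34 genes, and for 38 after scaling. Leaving out any 1 mouse gave 11 to 16 genes called lower, with Usp18 (-0.98) and Herc6 (-0.93) lost without AdCMV mouse 3 and Usp18 (-0.95), Herc6 (-0.94) and Cmpk2 (-0.86) lost without AdVEGFA mouse 4. Irf7 was called without AdVEGFA mouse 1 (-1.02) or 3 (-1.03), and Bst2 without AdCMV mouse 4 (-1.07) or AdVEGFA mouse 1 (-1.01) or 3 (-1.07). With both AdCMV mouse 3 and AdVEGFA mouse 4 left out, a choice made after seeing the data, 8 genes were called lower (Socs1, Zbp1, Ifit1, Rsad2, Ifi47, Apol9a, Apol9b and Apol10a) and Sp100 was called higher. After median-ratio scaling without AdVEGFA mouse 4, also chosen after seeing the data, 19 genes were called lower.

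**Figure D2:**
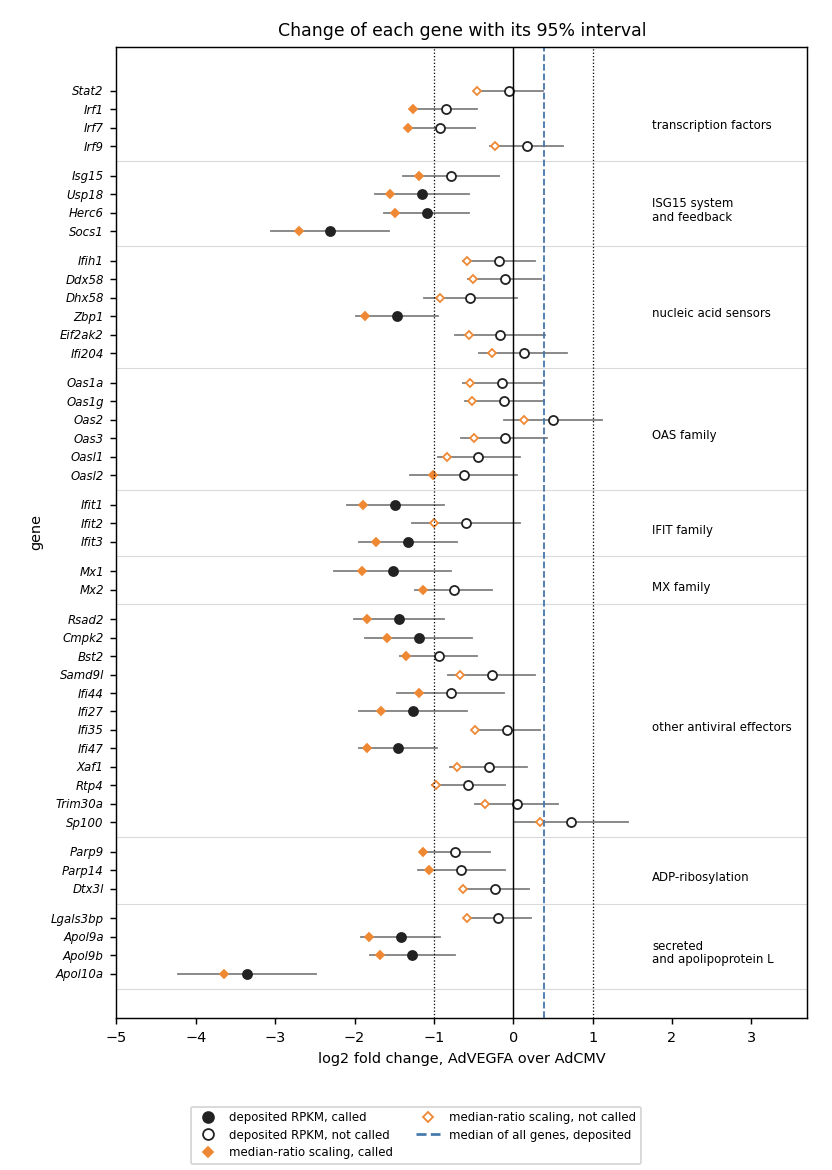
Log2 fold change of each of the 44 genes (AdVEGFA over AdCMV, 5 mice each), in the order of their roles: black circles with 95% intervals are on the deposited RPKM, orange diamonds after median-ratio scaling, and filled symbols are called. The dashed line is the median of all transcripts on the deposited RPKM (0.38) and dotted lines mark the fold change threshold; Apol10a lies farthest to the left at -3.36, and Oas2 and Sp100 are the genes right of 0 on both scales.

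The promoters of many of these genes hold letters of the ISRE. As the genes were chosen as interferon-stimulated, a high share with the ISRE core is a description and no independent result. RefSeq promoters (GRCm38.p6, 250 bases before to 50 after the transcription start) were held for 33 of the 44 genes, and both strands were searched for the ISRE core GAAANNGAA and the GAS core TTCNNNGAA, which can overlap each other. The ISRE core was found for 19 of the 33 (57.6%), against 9.76% of the 27025 genes of the promoter table, and the GAS core for 7 (21.2%), against 9.55%. Near-identical copies count as separate genes, such as Apol9a with Apol9b and Oas1a with Oas1g, which all hold the ISRE core. Among members called lower on the deposited RPKM it was 7 of 10 with the ISRE core and 1 of 10 with the GAS core, and among members not called 12 and 6 of 23; the difference between these shares was not tested. Of these, 6 promoters are printed for comparison, 3 of genes called lower with large changes (Apol10a and Socs1 lead) and the 3 genes with the smallest changes on the deposited RPKM, each 5′ to 3′ on the gene's strand with every match in capitals. Mx1, the called gene with the largest change after these 2, had no entry, and Ifit1, the next that had one, was taken instead after the values were seen.
Apol10a (chr15:77476797-77477096, plus strand): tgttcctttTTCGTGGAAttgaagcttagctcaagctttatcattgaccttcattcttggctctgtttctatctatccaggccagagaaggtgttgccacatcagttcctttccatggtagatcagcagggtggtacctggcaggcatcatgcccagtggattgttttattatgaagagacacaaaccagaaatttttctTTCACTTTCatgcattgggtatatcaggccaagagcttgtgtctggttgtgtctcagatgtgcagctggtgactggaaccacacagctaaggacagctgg
Socs1 (chr16:10785487-10785786, minus strand): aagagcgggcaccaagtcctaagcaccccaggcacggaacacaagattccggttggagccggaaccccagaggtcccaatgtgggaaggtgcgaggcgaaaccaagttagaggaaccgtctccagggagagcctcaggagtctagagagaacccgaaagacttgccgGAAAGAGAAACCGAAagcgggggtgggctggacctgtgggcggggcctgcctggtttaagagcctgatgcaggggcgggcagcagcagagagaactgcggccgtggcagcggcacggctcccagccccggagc
Ifit1 (chr19:34640639-34640938, plus strand): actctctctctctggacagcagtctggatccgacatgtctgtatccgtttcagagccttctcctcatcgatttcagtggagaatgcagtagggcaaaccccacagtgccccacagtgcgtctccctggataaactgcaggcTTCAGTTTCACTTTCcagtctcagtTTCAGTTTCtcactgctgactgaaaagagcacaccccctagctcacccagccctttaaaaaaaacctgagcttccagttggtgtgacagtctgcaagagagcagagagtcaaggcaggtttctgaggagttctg
Trim30a (chr7:104465144-104465443, minus strand): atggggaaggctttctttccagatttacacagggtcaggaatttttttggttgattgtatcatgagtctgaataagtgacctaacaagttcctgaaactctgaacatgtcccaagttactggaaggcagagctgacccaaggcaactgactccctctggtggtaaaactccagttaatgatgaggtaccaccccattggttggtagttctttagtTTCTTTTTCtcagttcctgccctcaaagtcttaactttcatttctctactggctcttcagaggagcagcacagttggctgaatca
Stat2 (chr10:128270248-128270547, plus strand): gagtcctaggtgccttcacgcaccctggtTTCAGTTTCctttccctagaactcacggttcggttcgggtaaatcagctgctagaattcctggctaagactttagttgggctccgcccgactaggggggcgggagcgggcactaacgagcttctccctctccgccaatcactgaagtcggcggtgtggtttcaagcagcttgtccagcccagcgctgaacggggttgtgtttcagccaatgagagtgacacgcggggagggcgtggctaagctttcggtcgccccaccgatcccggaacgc
Ifi35 (chr11:101448162-101448461, plus strand): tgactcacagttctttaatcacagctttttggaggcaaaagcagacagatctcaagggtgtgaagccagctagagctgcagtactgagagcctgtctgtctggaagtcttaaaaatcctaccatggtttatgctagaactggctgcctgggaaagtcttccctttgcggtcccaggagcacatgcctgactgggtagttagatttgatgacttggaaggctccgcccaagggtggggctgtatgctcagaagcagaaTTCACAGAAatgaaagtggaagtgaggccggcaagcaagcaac
In Apol10a an ISRE core on the opposite strand lay at -50 to -42 from the start and a GAS core at -241 to -233. Socs1 held 2 overlapping ISRE cores between -83 and -69, and Ifit1 held 3, at -109 to -101, -103 to -95 and -84 to -76. The 3 genes with the smallest changes on the deposited RPKM (after scaling -0.36 for Trim30a, -0.46 for Stat2 and -0.48 for Ifi35) held such letters too: Trim30a an ISRE core at -35 to -27, Stat2 one at -221 to -213 and Ifi35 a GAS core 8 to 16 bases after the start. A match of letters is not a bound site, and nothing here measures binding.

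Among the 4 transcription factors of the response, Irf1 and Irf7 had lower values in every AdVEGFA mouse than in any AdCMV mouse, and neither reached the fold change threshold on the deposited RPKM. Irf7, the factor that amplifies interferon-alpha production and the most abundant of the 4 (NM_001252600, chromosome 7, 148449082 to 148452323 on mm9), had 53.4, 55.8, 63.4, 54.2 and 57.8 RPKM in AdCMV mice 1 to 5 and 38.5, 29.2, 40.2, 18.8 and 27.8 in AdVEGFA mice 1 to 5. AdVEGFA mouse 4 was the lowest by a wide margin, and the AdCMV mice were close together. Its log2 fold change was -0.93 ± 0.21 (SE, limma adjusted p = 0.00419), and -1.33 after scaling (adjusted p = 0.000447), where it was called, as it was on the deposited RPKM without AdVEGFA mouse 1 (-1.02) or 3 (-1.03). Irf1, which responds to interferon-gamma through a GAS, had 32.5 ± 6.99 and 17.6 ± 1.1 RPKM (SD, n = 5 each) and a log2 fold change of -0.85 ± 0.19 (SE, limma adjusted p = 0.00324); it too was called after scaling (-1.26). Stat2 and Irf9, the subunits that make ISGF3 specific to type I interferon, had overlapping groups on the deposited RPKM. Stat2 was at 9.76 to 17.8 RPKM in AdCMV mice and 10.4 to 14.3 in the AdVEGFA group (log2 fold change -0.06), and after scaling every AdVEGFA mouse was below every AdCMV mouse (-0.46, adjusted p = 0.0437). Irf9 had a log2 fold change of 0.17 on the deposited RPKM that turned to -0.23 after scaling, still with overlap. Neither gene was called. The 4 had a median of -0.46, or -0.86 after scaling.

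In the ISG15 system and its feedback, 3 of 4 genes were called lower on the deposited RPKM and 4 after scaling. Isg15 encodes a ubiquitin-like protein that is attached to other proteins by the ligase Herc6 and removed by Usp18, and Usp18 and Socs1 also damp signalling at the interferon receptors. Socs1 (NM_009896, chromosome 16, 10783902 to 10785629), the feedback inhibitor of JAK kinases that interferon-gamma induces strongly, had 8.64, 11.7, 11, 4.8 and 5.72 RPKM in AdCMV mice 1 to 5 and 2.93, 1.44, 2.21, 1.31 and 0.611 in AdVEGFA mice 1 to 5. The groups did not overlap, and AdVEGFA mouse 5 was the lowest. Its log2 fold change was -2.31 ± 0.35 (SE, limma adjusted p = 0.000124), and -2.70 after scaling. With a pseudocount of 1 it was -1.79. Usp18 had 11.6, 10.9, 23.5, 14.9 and 16 RPKM in the AdCMV mice and 11.4, 6.36, 8.44, 3.85 and 5.41 in the AdVEGFA mice, in the same order, with AdVEGFA mouse 1 above AdCMV mouse 2. The log2 fold change of Usp18 was -1.15 ± 0.28 (SE, limma adjusted p = 0.00699), and -1.55 after scaling, where the groups did not overlap. For Herc6 the values were 8.91, 7.29, 16.1, 10.1 and 9.75 RPKM in the AdCMV mice and 6.4, 4.51, 6.29, 3.02 and 3.99 in the AdVEGFA mice, without overlap but with AdCMV mouse 3 far above the rest. Its log2 fold change was -1.09 ± 0.25 (SE, limma adjusted p = 0.00479) and -1.49 after scaling, but -0.96 and no longer called with a pseudocount of 1. Isg15, the most abundant of the 4, had 33.1, 24, 70.4, 49.2 and 34.4 RPKM against 26, 30.6, 29, 12.9 and 20.7. AdVEGFA mice 1 to 3 lay within the AdCMV range, and its log2 fold change of -0.78 ± 0.29 (SE, limma adjusted p = 0.0563) missed both thresholds on the deposited RPKM, while after scaling it was called (-1.19, adjusted p = 0.00843) and the groups did not overlap. Without AdCMV mouse 3, Usp18 (-0.98) and Herc6 (-0.93) were no longer called, nor without AdVEGFA mouse 4 (-0.95 and -0.94). The median of the 4 was -1.12, or -1.52 after scaling.

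Of the 6 sensors of foreign nucleic acid, 1 was called lower, on the deposited RPKM and after scaling. Zbp1, a sensor of Z-form nucleic acid that can start cell death, had 22.6, 23.5, 45.9, 30.1 and 33.4 RPKM in AdCMV mice 1 to 5 and 11.9, 10.4, 15.7, 6.82 and 11.1 in AdVEGFA mice 1 to 5, and the highest AdVEGFA mouse was below the lowest AdCMV mouse. The log2 fold change of Zbp1 was -1.47 ± 0.24 (SE, limma adjusted p = 0.000303), and -1.87 after scaling. The RNA sensors Ddx58 (RIG-I), Ifih1 (MDA5) and Dhx58 (LGP2), the kinase Eif2ak2 (PKR), which stops translation, and Ifi204, a DNA sensor, had overlapping groups on the deposited RPKM. Their log2 fold changes were -0.11, -0.18, -0.54, -0.17 and 0.13 in that order on the deposited RPKM, with limma adjusted p from 0.164 to 0.742, and -0.51, -0.58, -0.93, -0.56 and -0.27 after scaling, so that Ifi204 changed sign. After scaling the adjusted p was 0.0248 for Ddx58, 0.0123 for Ifih1 and 0.0138 for Dhx58, below the fold change threshold, and the groups of Ifih1 and Dhx58 no longer overlapped. The 6 sensors summed to 94.2 ± 28.4 RPKM in the AdCMV group and 68.9 ± 15.1 in the AdVEGFA group (SD, n = 5 each), with a median log2 fold change of -0.17, or -0.57 after scaling.

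Of the 6 OAS genes, 0 were called by limma or voom on the deposited values. OAS enzymes make a short oligoadenylate that activates RNase L, which degrades RNA, and the related Oasl proteins lack that activity in part. Oasl1, the most abundant, had 24.7, 21.4, 38.5, 25.1 and 25.5 RPKM in the AdCMV mice and 23.1, 26.5, 24.3, 11.2 and 17.1 in the AdVEGFA mice. Only AdVEGFA mice 4 and 5 were below the AdCMV range, and the log2 fold change was -0.44 ± 0.24 (SE, limma adjusted p = 0.192). After scaling it was -0.84 (adjusted p = 0.0137), not called, with every AdVEGFA mouse below every AdCMV mouse. Oas1a and Oas1g, neighbours in the OAS cluster of chromosome 5 with near-identical sequence, ran in parallel in every mouse (1.03 to 1.18 reads on Oas1a for each on Oas1g), so that reads of one may be counted on the other. Both had log2 fold changes near 0 (-0.14 and -0.12), as had Oas3 (-0.11), and Oas2, the gene with the lowest AdCMV mean of the 44 (0.978 RPKM), had 0.50. After scaling the 6 ranged from -1.01 (Oasl2, called, adjusted p = 0.0266) to 0.14 (Oas2). At an unadjusted p under 0.05 on the deposited RPKM, 0 of the 6 differed, and the medians were -0.13 and, after scaling, -0.53.

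Ifit1, Ifit2 and Ifit3 are neighbours on chromosome 19 whose proteins bind foreign RNA ends and block its translation. Ifit1 and Ifit3 were called lower on the deposited RPKM and after scaling. Ifit1 had 22, 14, 34.2, 37.8 and 22.7 RPKM in AdCMV mice 1 to 5 and 12.3, 9.51, 11.1, 4.67 and 8.24 in AdVEGFA mice 1 to 5. AdCMV mice 3 and 4 were the highest, and no AdVEGFA mouse reached the lowest AdCMV mouse. Its log2 fold change was -1.49 ± 0.29 (SE, limma adjusted p = 0.00125) and -1.89 after scaling. Ifit3, the most abundant of the 3, had 24.6, 19.7, 42.2, 38.3 and 29.1 RPKM against 19.9, 13.4, 13.3, 5.73 and 11, with AdVEGFA mouse 1 just above AdCMV mouse 2 (-1.33 ± 0.29 SE, limma adjusted p = 0.00322; -1.73 after scaling, without overlap). Ifit2 was at 4.98 to 13 RPKM in AdCMV mice and 2.09 to 7.29 in the AdVEGFA group and was not called (-0.60, limma adjusted p = 0.174). After scaling its groups did not overlap (adjusted p = 0.0259) and its change lay at the fold change threshold without passing it; per reads outside the Mup genes, an alternative chosen after seeing the data, Ifit2 was called lower. Ifit3 has a near-identical copy, Ifit3b, that is listed beside the 44 and could share its reads.

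Mx1 and Mx2 encode dynamin-like GTPases that trap viral nucleoprotein; in C57BL/6 mice both genes are known to carry disrupting alleles, and the table lists them under non-coding RefSeq identifiers. Mx1 had 3.19, 4.66, 13.1, 5.17 and 4.91 RPKM in the AdCMV mice and 2.98, 1.6, 2.46, 0.915 and 1.94 in the AdVEGFA mice. AdCMV mouse 3 was far above all others, and the groups did not overlap. The log2 fold change of Mx1 was -1.52 ± 0.35 (SE, limma adjusted p = 0.00452) and -1.91 after scaling, or -0.98 on the deposited RPKM with both AdCMV mouse 3 and AdVEGFA mouse 4 left out. Mx2 had a log2 fold change of -0.75 ± 0.23 (SE, limma adjusted p = 0.0254) on the deposited RPKM and was called after scaling (-1.14).

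**Figure D3:**
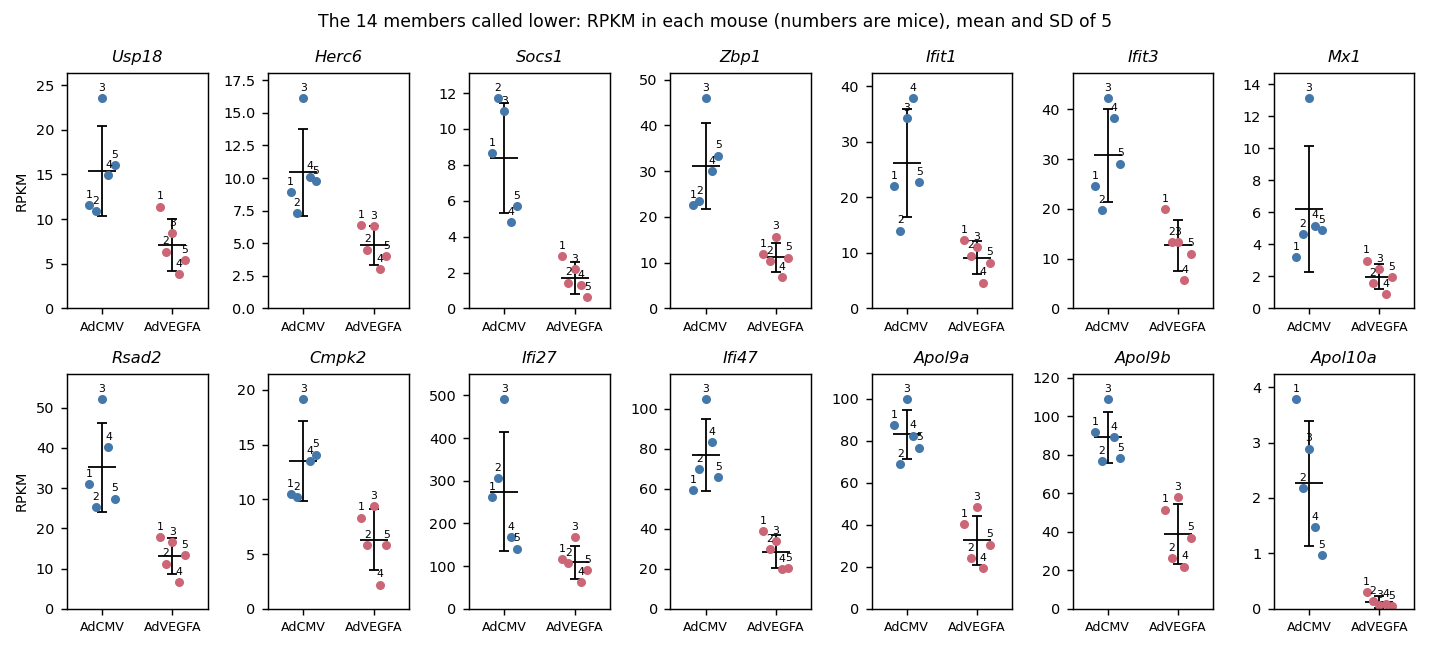
RPKM in each mouse (points, numbered as the replicates) for the 14 genes called lower, with the mean and SD of 5 mice per group as a bar and whiskers; each panel has its own axis, which starts at 0. Usp18, Ifit3 and Ifi27 are the 3 genes for which the groups overlap.

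Of the 12 other antiviral effectors, 4 were called lower on the deposited RPKM and 6 after scaling. Rsad2 and Cmpk2 stand next to each other on chromosome 12 in opposite directions; the first encodes viperin, which makes a chain-terminating nucleotide, and the second a mitochondrial nucleotide kinase. Rsad2 had 30.9, 25.2, 52.2, 40.2 and 27.4 RPKM in AdCMV mice 1 to 5 and 17.9, 11.2, 16.5, 6.64 and 13.4 in AdVEGFA mice 1 to 5, and its groups did not overlap. Cmpk2 had 10.5, 10.2, 19.2, 13.5 and 14.1 and 8.34, 5.84, 9.38, 2.2 and 5.84, again without overlap, with AdVEGFA mouse 4 the lowest of its group. Their log2 fold changes were -1.44 ± 0.27 (SE, limma adjusted p = 0.000891) for Rsad2 and -1.19 ± 0.32 (SE, limma adjusted p = 0.0122) for Cmpk2, or -1.84 and -1.59 after scaling, with Cmpk2 at -0.86 and no longer called without AdVEGFA mouse 4, and -0.73 without AdCMV mouse 3 as well. Ifi47, an immunity-related GTPase, had 59.3, 69.9, 105, 83.5 and 66 RPKM in the AdCMV mice and 38.8, 29.9, 33.7, 19.8 and 20.3 in the AdVEGFA mice. AdVEGFA mice 4 and 5 were the lowest and the groups lay well apart (-1.45 ± 0.23 SE, limma adjusted p = 0.000201; -1.85 after scaling). Its span overlaps the odorant receptor gene Olfr56 on the same strand. Ifi27, a small mitochondrial and nuclear membrane protein, varied widely within the AdCMV group, with 262, 306, 492, 168 and 141 RPKM there and 116, 107, 168, 61.9 and 90.3 in the AdVEGFA group. AdVEGFA mouse 3 was level with AdCMV mouse 4 and above AdCMV mouse 5. The log2 fold change of Ifi27 was -1.26 ± 0.32 (SE, limma adjusted p = 0.00872), -1.67 after scaling, where the groups did not overlap, and -0.83 on the deposited RPKM without AdCMV mouse 3 and AdVEGFA mouse 4.

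Bst2 (tetherin), which holds budding virus particles at the cell surface, had the highest mean RPKM of the 44 over all 10 mice, though Ifi27 was higher in the AdCMV group (274 against 256). It had 255, 306, 320, 174 and 223 RPKM in AdCMV mice 1 to 5 and 155, 102, 182, 104 and 124 in AdVEGFA mice 1 to 5, with only AdVEGFA mouse 3 above the lowest AdCMV mouse. Its log2 fold change was -0.94 ± 0.23 (SE, limma adjusted p = 0.00677), just short of the fold change threshold, and -1.35 after scaling, where it was called. It was also called without AdCMV mouse 4 (-1.07), AdVEGFA mouse 1 (-1.01) or AdVEGFA mouse 3 (-1.07). Ifi44 was also called only after scaling (-0.79 deposited, -1.19 scaled). The other 6 effectors were called on neither scale. Of these, Rtp4, Xaf1, Samd9l and Ifi35 had log2 fold changes of -0.57, -0.31, -0.27 and -0.08 and, after scaling, -0.97, -0.71, -0.67 and -0.48. Trim30a, a regulator of innate signalling, had 0.04, which turned to -0.36 after scaling. Sp100, a nuclear body protein that silences incoming viral DNA, was the gene with the highest log2 fold change (0.73 ± 0.34 SE, limma adjusted p = 0.122; 0.34 after scaling). Its AdCMV mice fell into low values of 2.97, 2.12 and 2.43 RPKM (mice 1, 2 and 4) and high values of 7.19 and 6.83 (mice 3 and 5), the latter within the AdVEGFA range of 3.74 to 8.49. Over the 12 effectors the median was -0.68, or -1.08 after scaling.

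The ADP-ribosylation genes Parp9, Parp14 and Dtx3l lie side by side on chromosome 16; Parp9 and Dtx3l form a complex that couples ADP-ribosylation to ubiquitin transfer. Dtx3l, the most abundant, had 22.7, 23.3, 38.7, 27.8 and 32.8 RPKM in the AdCMV mice and 25, 21.6, 30.3, 26.4 and 19.5 in the AdVEGFA mice, of which mice 2 and 5 were below the AdCMV range (-0.23 ± 0.20 SE, limma adjusted p = 0.415). After scaling every AdVEGFA mouse was below every AdCMV mouse for Dtx3l (-0.63, adjusted p = 0.0042). Parp9 did not overlap between groups, at 20.9 to 39.7 RPKM against 12.7 to 17.7 (-0.74 ± 0.21 SE, limma adjusted p = 0.0162). After scaling, Parp9 (-1.14) and Parp14 (-1.06) were called and Dtx3l was not. The spans of Parp9 and Dtx3l overlap on opposite strands, and whether the counting used strand is not given in the sources used here, so reads of the shared stretch could be counted on either gene.

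All 3 apolipoprotein L genes among the 44 were called lower on the deposited RPKM and after scaling. Apol9a, Apol10a and Apol9b lie within one stretch of chromosome 15, from 77234219 to 77566812 on mm9. They encode intracellular members of a family named for its lipoprotein-bound founder. Apol7c, which is listed beside the 44, lies in that stretch too and did not fall on the deposited RPKM (0.01, limma adjusted p = 0.994). After scaling Apol7c was at -0.36 and was not called. Apol10a had 3.79, 2.18, 2.89, 1.47 and 0.975 RPKM in AdCMV mice 1 to 5 and 0.294, 0.133, 0.059, 0.081 and 0.049 in AdVEGFA mice 1 to 5. Even the lowest AdCMV mouse was above every AdVEGFA mouse, and the AdVEGFA values rest on 1 to 5 reads per library, against 17 to 89. Its log2 fold change of -3.36 ± 0.41 (SE, limma adjusted p = 1.27e-05; -3.65 after scaling) therefore depends on the pseudocount. It is the lowest of the 44 with 0.1 RPKM added, but with 1 RPKM added it was -1.47, above the -1.79 of Socs1. The mean of Apol10a over all 10 mice was 1.19 RPKM. With a filter on that mean, which does not look at the groups, Apol10a was also called lower (limma adjusted p = 1.53e-05). The same held with no filter (limma adjusted p = 5.64e-05). Apol9a had 87.4, 68.9, 100, 82.4 and 76.7 RPKM in the AdCMV mice and 40.2, 24.1, 48.4, 19.5 and 30.5 in the AdVEGFA mice. Apol9b had 91.7, 76.7, 109, 89.1 and 78.1 and 51.5, 26.2, 58, 21.9 and 36.9 in the same order. In both genes the groups were clearly apart and AdVEGFA mice 2 and 4 were the lowest, and the log2 fold changes were -1.42 ± 0.24 (SE, limma adjusted p = 0.000311) for Apol9a and -1.28 ± 0.25 (SE, limma adjusted p = 0.00141) for Apol9b, or -1.82 and -1.68 after scaling. These copies are near-identical and ran in parallel (0.769 to 0.967 reads on Apol9a for each on Apol9b), so they may not be separate measurements. Lgals3bp, a secreted galectin-binding protein, was at 35.7 to 66.2 RPKM in AdCMV mice and 40 to 49.1 in the AdVEGFA group and was not called (-0.19, or -0.59 after scaling).

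Members lie on 16 chromosomes. Of the 44, 19 lie in 7 groups with neighbours less than 500 kb apart. Genes outside the 44 are not counted here. Among these, Apol7c between the Apol genes was not called, and Ifit3b between Ifit3 and Ifit1 was called lower. Of the 44, both genes of the Rsad2 and Cmpk2 pair and the 3 Apol genes were called lower on the deposited RPKM. So were 2 of the 3 Ifit genes and 1 of the 2 Mx genes. None was called by limma in the group of Oas1a, Oas1g, Oas2 and Oas3, in the pair of Oasl1 and Oasl2 or among Parp9, Parp14 and Dtx3l, though after scaling Oasl2, Parp9 and Parp14 were.

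Upstream of these genes, interferon-beta and the interferon-alpha genes had no read in any mouse. Of the 21 interferon genes listed, 18 had 0 reads in all 10 mice, among them Ifnb1, for which 3 reads, the limit that a count of 0 allows, correspond to 0.29 to 0.699 RPKM depending on the library. This holds for day 6 and for counting error only. Ifng, the gene of interferon-gamma, had 5, 10, 8, 4 and 2 reads in AdCMV mice 1 to 5 and 0, 1, 0, 0 and 0 in AdVEGFA mice 1 to 5. The single AdVEGFA read was in mouse 2. The filter on low values let Ifng in through the AdCMV group alone, so its log2 fold change of -2.38 (-2.57 after scaling) is given as a description. The other 2, Ifnk and Ifnz, had 24 and 7 reads over the AdCMV group and 15 and 9 over the AdVEGFA group.

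Of the receptor and JAK-STAT genes given here, 9 were tested and Ifngr1 was called higher on the deposited RPKM, though not after scaling. Such a count of 1 in 9 stands beside 13% of all transcripts called higher (7.77% after scaling). Ifngr1, which encodes the ligand-binding chain of the interferon-gamma receptor, had 8.79, 14, 15.2, 6.55 and 11.5 RPKM in AdCMV mice 1 to 5 and 26.4, 25.4, 30.5, 25.4 and 19.3 in AdVEGFA mice 1 to 5. Every AdVEGFA mouse was above every AdCMV mouse (1.22 ± 0.23 SE, limma adjusted p = 0.00107), and after scaling the change was 0.82 and below the fold change threshold. For the type I receptor, Ifnar1 had 14.8 ± 3.17 and 20.6 ± 3.22 RPKM (SD, n = 5 each) in the AdCMV and AdVEGFA groups, and Ifnar2 had 41 ± 8.22 and 41.3 ± 4.84 RPKM (SD, n = 5 each). Their log2 fold changes were 0.48 (limma adjusted p = 0.0876) and 0.02 (limma adjusted p = 0.938), or 0.08 and -0.38 after scaling, and neither was called. The induction pathway, from the Toll-like receptors and cGAS to TBK1, had 0 of 12 genes called in either direction by limma on either scale (median 0.11 deposited, -0.29 scaled), and the same held for the 5 other IRF genes.

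**Figure D4:**
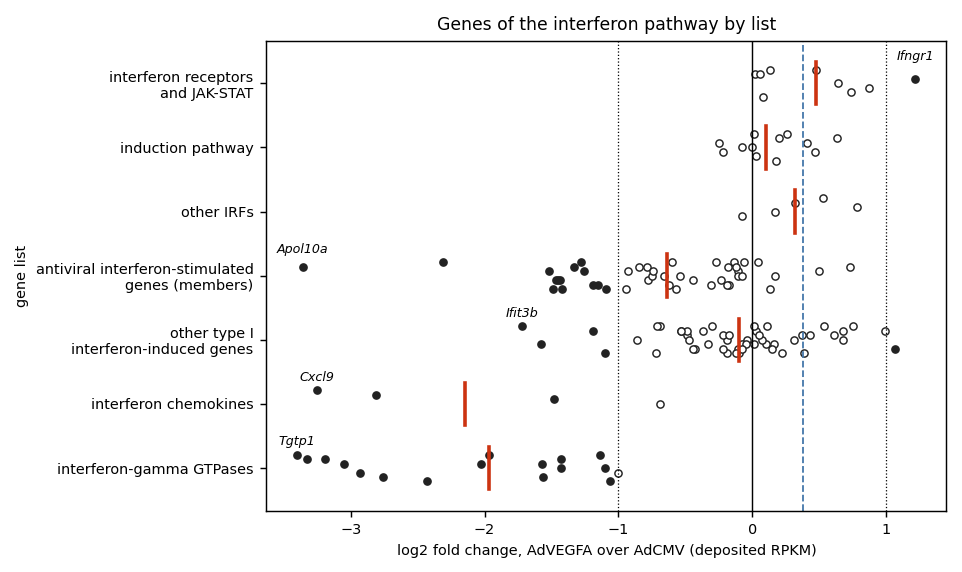
Log2 fold change (AdVEGFA over AdCMV, deposited RPKM) of each tested gene of 7 lists of the interferon pathway, with called genes filled, the median of each list as a red bar and the median of all transcripts (0.38) as a dashed line. The interferon-gamma GTPases and the chemokines lie farthest to the left, the 44 antiviral genes between them and the receptors, and Ifngr1 is the receptor gene farthest to the right.

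The lists with the lowest medians were 2 that are known to answer interferon-gamma. Of 17 interferon-gamma-induced GTPases (the Gbp, Irg and Tgtp proteins that attack vacuoles of intracellular pathogens), 16 were called lower on the deposited RPKM and 17 after scaling, with medians of -1.97 and -2.37. Tgtp1 had 171, 171, 311, 185 and 179 RPKM in AdCMV mice 1 to 5 and 36, 19.7, 30.2, 6.53 and 15.6 in AdVEGFA mice 1 to 5. Its lowest AdCMV value was more than 4 times its highest AdVEGFA value, and its log2 fold change was -3.40 ± 0.35 (SE, limma adjusted p = 2.5e-06), or -3.80 after scaling. Tgtp2 (-3.33) is listed over nearly the same span and the same strand, so the 2 are not separate measurements among the 17. The chemokines that draw T cells through CXCR3 fell as well. Cxcl9 had 153, 143, 224, 154 and 129 RPKM in the AdCMV mice and 39.1, 22.6, 28.4, 4.2 and 11.4 in the AdVEGFA mice, with AdVEGFA mouse 4 again the lowest (-3.25 ± 0.43 SE, limma adjusted p = 2.83e-05; -3.65 after scaling). Cxcl10 was at 54.3 to 119 RPKM against 4.83 to 16.6 (-2.81 ± 0.30 SE, limma adjusted p = 3.16e-06; -3.21 after scaling). In all, 3 of 4 chemokine genes were called lower and, after scaling, 4. The 51 other type I interferon-induced genes that were tested had a median of -0.10 (-0.50 after scaling), against 0.38 (-0.0044) for all transcripts. Of all transcripts, 1.54% were called lower (3.14% after scaling) and 13% higher (7.77%). Among the 51 genes, 4 were called lower (8 after scaling) and 1 higher (0 after scaling). The largest falls there were those of Ifit3b (-1.72 ± 0.36 SE, limma adjusted p = 0.00204; -2.12 after scaling) and Slfn1 (-1.58, or -1.93), and the gene called higher was Ifi203 (1.07, or 0.67 and not called after scaling). Whether the lists differ from each other was not tested.

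Markers of several cell types were called as well. Counts of calls here and below stand beside 1.54% of all transcripts called lower and 13% higher (3.14% and 7.77% after scaling). A marker that entered through 1 group alone could hardly be called in the other direction, so its call is a description. Of 12 T and NK cell markers tested, 6 were called lower and 0 higher (7 and 0 after scaling). The list summed to 32.8, 35.7, 56, 18.8 and 49 RPKM in AdCMV mice 1 to 5 and 27.1, 22.1, 27.9, 18.6 and 15.3 in AdVEGFA mice 1 to 5, with overlap, as AdCMV mouse 4 was among the lowest. After scaling the sums were 42.1, 44.5, 45.9, 28.4 and 49.4 against 23.4, 18.9, 22.4, 15.6 and 15.3, without overlap. Called lower were Prf1 (which entered through the AdCMV group alone), Gzmb, Cd3g, Cd3e, Nkg7 and Cd8a, while Cd8b1, the most abundant of the list over the 10 mice at 6.34 and 5.88 RPKM on average, was not (-0.13); in the AdCMV group Nkg7 (6.84) was higher. Ncr1 and Klrb1c, which mark NK cells, and Cd4 were below 0.5 RPKM on average in both groups and were not tested; the NK cell markers had 7 and 22 reads over the AdCMV group and 18 and 26 over the AdVEGFA group. These cells are the known source of interferon-gamma, and the part of their number in the falls above was not tested. Ly6c2, a marker of inflammatory monocytes, was at 20.5 to 29.5 RPKM in AdCMV mice and 5.23 to 13 in the AdVEGFA group (-1.37 ± 0.23 SE, limma adjusted p = 0.000388), the 1 gene of 7 monocyte and neutrophil markers called lower. Of that list, Mpo (0 in every AdCMV mouse) and Elane were called higher. Both entered through the AdVEGFA group alone, so their calls are a description. That list summed to 75, 137, 89.5, 58.2 and 52.3 RPKM against 57.8, 85.7, 61, 230 and 36.5, with AdVEGFA mouse 4 the highest. S100a8 had 107 RPKM in that mouse and 6.53 to 26.1 in the other AdVEGFA mice, against 8.77 to 51.9 in the AdCMV mice. S100a8 was the most abundant over the 10 mice, and Ly6c2 in the AdCMV group.

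Kupffer cell markers had calls only in the other direction, that of most calls among all transcripts. Of 11 tested, Clec4f, Vsig4 and Csf1r were called higher (the first 2 also after scaling) and 0 lower, and Cd5l was the most abundant. Across all transcripts 13% were called higher and 1.54% lower (7.77% and 3.14% after scaling). Clec4f, which is specific to Kupffer cells in the mouse, had 1.44, 3.32, 2.71, 2.84 and 5.3 RPKM in the AdCMV mice and 18.1, 18.2, 17.9, 5.66 and 11.7 in the AdVEGFA mice (2.15 ± 0.34 SE, limma adjusted p = 0.000205; 1.76 after scaling, where the groups overlap). The list summed to 176, 249, 242, 145 and 315 RPKM in the AdCMV mice and 473, 391, 429, 342 and 306 in the AdVEGFA mice, with AdCMV mouse 5 just inside the AdVEGFA range; after scaling AdCMV mice 2 (311) and 5 (318) were inside the range of 288 to 407. All 10 endothelial markers were called higher on both scales. The log2 fold changes on the deposited RPKM ran from 1.43 for Tek to 5.33 for Emcn and 5.84 for Cd34, which entered through the AdVEGFA group alone. Of the 10 markers, Clec4g was the most abundant. Their sums, 42.9, 54.6, 63.8, 36.5 and 67.1 RPKM in the AdCMV mice and 337, 284, 320, 301 and 280 in the AdVEGFA mice, lay far apart.

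Of the plasmacytoid dendritic cell markers, cells known for type I interferon production, Siglech had 2.28 ± 0.896 and 3.38 ± 1.02 RPKM (SD, n = 5 each) and was not called (0.57); Tcf4, which endothelial cells also express, was the 1 of 5 called higher. Ly6d, the most abundant in the AdCMV group (Tcf4 was in the AdVEGFA group), had the opposite sign (-1.31, limma adjusted p = 0.138; -1.71 after scaling) and was not called. That list summed to 29.1, 48.6, 172, 19.8 and 21.7 RPKM against 39, 56.7, 53.7, 67 and 31.3, with AdCMV mouse 3 far above all other mice through Ly6d (158 RPKM). Dendritic cell markers had 2 of 4 called higher, Clec9a and Zbtb46 (after scaling Zbtb46, which entered through the AdVEGFA group alone), with Xcr1 the most abundant. Itgax had the opposite sign (-0.62, or -0.99 with an adjusted p of 0.0125 after scaling) and was not called. The list had sums of 13.4, 16.4, 23.1, 16.3 and 19.9 RPKM against 24.5, 26.7, 32.7, 29.1 and 20.2, with AdVEGFA mouse 5 inside the AdCMV range, and after scaling 17.2 to 24.7 against 20.3 to 26.3. Of the B cell markers given here, 3 were tested and 2, Cd79b and Ms4a1, were called higher (1 after scaling, Cd79b; Ms4a1 entered through the AdVEGFA group alone), with Cd79b the most abundant and Pax5 at 0 in every AdCMV mouse. They summed to 0.441, 1.59, 1.15, 1.14 and 1.3 RPKM against 7.46, 6.24, 4.4, 5.62 and 2.51, low in both groups but without overlap. Of 8 hepatocyte markers Alb and Apoa1 were called higher on the deposited RPKM and 0 after scaling, where Cyp2e1 was called lower (-1.17). Alb was the most abundant, and the list summed to 16865, 20205, 16573, 16064 and 20801 RPKM against 29780, 28645, 36046, 29091 and 32485, higher in every AdVEGFA mouse. After scaling the sums overlapped, at 13576 to 25247 against 24438 to 32583. Counts of calls in this paragraph stand beside 13% of all transcripts called higher and 1.54% lower (7.77% and 3.14% after scaling). Whether any list exceeds these shares was not tested. The part of any of these cell types in the levels of the 44 genes was not tested either.

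**Figure D5:**
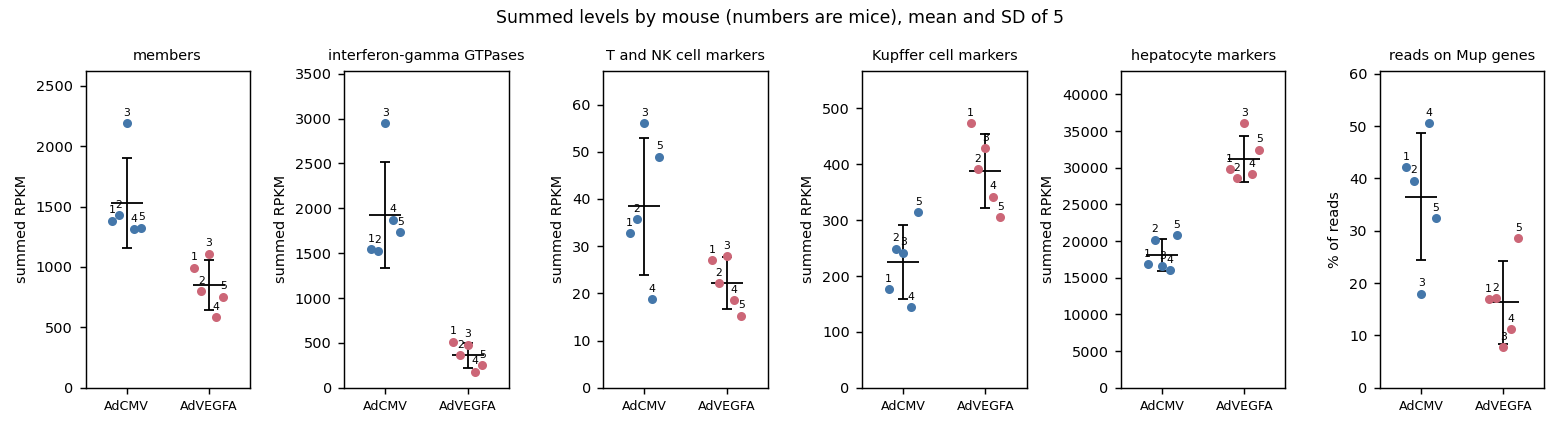
Summed RPKM per mouse (points, numbered as the replicates, with mean and SD of 5) of the 44 genes, of the interferon-gamma GTPases and of 3 lists of cell type markers, and the share of reads on Mup genes in percent. The sums of the 44 genes and of the GTPases are lower in every AdVEGFA mouse than in any AdCMV mouse, those of the T and NK cell markers overlap, and those of the hepatocyte markers are higher in every AdVEGFA mouse. The sums shown are of deposited RPKM; after median-ratio scaling the T and NK cell sums do not overlap and the hepatocyte sums do.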

How the data were processed

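Whole-liver RNA, depleted of ribosomal RNA, was sequenced from 5 AdVEGFA and 5 AdCMV mice. The authors aligned reads with TopHat, and the submitters' notes name HOMER and mm9. The authors deposited RPKM values and transcript lengths; their own columns of log fold change and FDR between the groups were not used. Of 24016 transcripts 5 had no gene symbol and were left out.

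Reads were recovered from the RPKM, the length and the total of mapped tags that made at least 99.98% of values above 0 whole. Libraries held 5596560 to 13494000 mapped tags, so 3 reads on 1 kb are 0.222 to 0.536 RPKM, a limit that covers counting error only. Recovered reads exceeded mapped tags by 2.31 to 13.94%, so some were counted more than once; how is not given in the sources used here.

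The test was limma 3.58.1 (R 4.3.3), lmFit then eBayes using its trend option, on log2(RPKM + 0.1), which understates changes of low values. Transcripts whose mean passed 0.5 RPKM in 1 group or both entered, and p was adjusted by Benjamini-Hochberg over all 13933. The thresholds, FDR 0.05 and log fold change 1, are those of the study's methods; the methods text used here names no test for RNA-Seq, and its supplement was not used here. The code was tested on simulated data. Scaling (median-ratio, upper quartile), pseudocount, filter, fold change threshold, replicate block, voom and leaving out each mouse were varied, and 3 further alternatives were chosen after seeing the data.

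The members and lists were chosen with earlier results of these data known. Full values are given for members called and for the most abundant member of each role, and of the other pathway lists the 2 called genes with the largest change in each direction are named. The lists of receptor and JAK-STAT genes and of B cell markers are not complete: 1 gene of each is not reported here, and the values of these lists leave it out. Counting intervals used Python 3.11.15 with scipy 1.17.1. Gene coordinates are mm9 as deposited and promoter coordinates GRCm38.p6.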

Additional observations from a re-analysis of the deposited data

Results flagged for a closer look

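Within a group of 5 mice, 1 value stood apart from the other 4 for 6 of the 88 combinations of gene and group, by the gap to its neighbour as a share of the group's range on log2(RPKM + 0.1) (over 0.71); chance alone gives about 1 in 20, a rate close to 6 of 88. In 5 of them AdCMV mouse 3 was the high value; once values were scaled by median ratio, AdCMV mouse 4 was the highest for 4 of these, all but Samd9l. The widest gap was that of Ifi44, with 27.3 RPKM in that mouse against 16.5 to 17.3 in the other AdCMV mice (gap 0.913 of the range). Trim30a had 29.1 RPKM against 14.6 to 17.1 (0.774), Ifih1 28.2 against 15.7 to 18.2 (0.745), Samd9l 32.4 against 11.3 to 14.9 (0.741) and Ifi35 50.7 against 31.6 to 35.8 (0.736). AdCMV mouse 3 had a median-ratio factor of 1.221, the highest of the AdCMV group, and the lowest Mup share of that group (18%); their part in these values was not tested. The other value was low: Irf1 had 15.7 RPKM in AdVEGFA mouse 4 against 17.8 to 18.3 in the other AdVEGFA mice (0.809).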

How the results depend on the processing

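The median log2 fold change of the 44 genes kept its negative sign under all 24 alternatives. It ran from -1.05 to -0.34, and from -0.78 to -0.47 with 1 mouse left out. With median-ratio scaling there were 1082 genes higher, 438 lower, 23 members lower and a member median of -1.03. With upper quartile scaling these counts were 1125, 393 and 22, and per reads outside the Mup genes 1059, 446 and 24 with a median of -1.05. With AdVEGFA mouse 4 left out after median-ratio scaling, 1077 genes were higher and 402 lower. A pseudocount of 1 left 954 genes higher and 13 members lower (Herc6 lost, at -0.96), and without the fold change threshold 3055 genes were higher and 19 members lower. Leaving out AdCMV mouse 3 and AdVEGFA mouse 4 gave 8 members lower and 1 higher. With any 1 mouse left out, 1425 to 2357 genes were higher, 178 to 225 lower, 11 to 16 members lower and 0 higher.

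Same-numbered mice share only a number: their deviations from the group mean correlated at 0.008 to 0.291, and 1 of 5 pairs matched best within itself. With the replicate number as a block, 1933 genes were higher, 256 lower and 14 members lower, and with the block and median-ratio scaling 1081, 475 and 23, with a member median of -1.03.

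Changes of sign were seen only for members that were called on no scale. After median-ratio scaling, with or without the block, Irf9 was at -0.23, Ifi204 at -0.27 and Trim30a at -0.36; with upper quartile scaling at -0.18, -0.23 and -0.31, per reads outside the Mup genes at -0.24, -0.29 and -0.37, and with median-ratio scaling without AdVEGFA mouse 4 at -0.08, -0.07 and -0.18. Stat2 was at 0.02 with voom. Without AdCMV mouse 3 and AdVEGFA mouse 4, Ifih1 was at 0.03, Ddx58 0.07, Eif2ak2 0.18, Oas1a 0.13, Oas1g 0.16, Oas3 0.17, Samd9l 0.04 and Ifi35 0.10. With 1 mouse left out, Trim30a ran from -0.08 to 0.22, Stat2 from -0.17 to 0.05, Ddx58 from -0.20 to 0.03, Eif2ak2 from -0.32 to 0.04, Oas3 from -0.24 to 0.03, Ifi35 from -0.18 to 0.05, Ifi204 from -0.0039 to 0.31, Oas1a from -0.29 to 0.05 and Oas1g from -0.26 to 0.07. Where scaling did not act, the cause was not tested. Depth limits Apol10a, Ifng and the interferon ligands, which rest on few reads or none.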
